A study of Mus musculus with 4 samples.

Results

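The mRNA levels of 10 genes of the integrated stress response and of endoplasmic reticulum (ER) associated degradation were followed in the livers of ABCA1-transgenic mice. Members were the probe sets annotated with exactly 1 symbol out of Atf4, Ddit3, Trib3, Asns, Xbp1, Herpud1, Dnajb9, Sel1l, Edem1 and Syvn1. All 10 genes were measured, by 22 of the 22626 probe sets and among 12393 genes. The group was 4 male C57BL/6 mice labelled ABCA1-TG, 5 to 6 months old and fed the NIH36 diet, with 1 oligonucleotide array of liver total RNA each. The series title places the mice on an LDL receptor -/- background whereas the sample descriptions say LDL receptor +/-, and the promoter and species of the transgene are not given in the sources used here. Wild-type arrays, which the design mentions, were not analysed here, so the text describes levels and their spread between the 4 transgenic livers, numbered mouse 1 to mouse 4 as the titles number the biological replicates. Pooling of animals is not mentioned in the labels.

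The integrated stress response is the branch in which kinases that sense ER stress, amino acid shortage, heme shortage or double-stranded RNA phosphorylate the initiation factor eIF2-alpha, which lowers general translation while translation of the ATF4 mRNA rises. ATF4 then drives genes of amino acid supply and, with prolonged stress, the transcription factor CHOP, encoded by Ddit3. In parallel the ER sensor IRE1 splices the Xbp1 mRNA, and the XBP1 protein made from it raises genes that fold, export and degrade misfolded ER proteins, a load that is heavy in hepatocytes because they secrete most plasma proteins. These arrays measure mRNA level and read neither eIF2-alpha phosphorylation, ATF4 translation nor Xbp1 splicing.

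The promoters of 4 members are printed because each holds a response element of this pathway. They are RefSeq sequences of assembly GRCm38.p6, found for 10 of the 10 members, and run from 250 bases before to 50 bases after the annotated start, 5′ to 3′ on the strand of the gene. Capitals mark the motif matches.
Herpud1, chr8:94386179-94386478, plus strand: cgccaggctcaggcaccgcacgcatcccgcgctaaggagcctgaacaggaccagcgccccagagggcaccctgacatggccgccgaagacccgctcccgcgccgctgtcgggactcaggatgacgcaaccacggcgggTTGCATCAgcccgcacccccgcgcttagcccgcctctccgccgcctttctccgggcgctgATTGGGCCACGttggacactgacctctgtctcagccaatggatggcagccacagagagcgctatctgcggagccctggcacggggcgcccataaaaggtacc
Syvn1, chr19:6046326-6046625, plus strand: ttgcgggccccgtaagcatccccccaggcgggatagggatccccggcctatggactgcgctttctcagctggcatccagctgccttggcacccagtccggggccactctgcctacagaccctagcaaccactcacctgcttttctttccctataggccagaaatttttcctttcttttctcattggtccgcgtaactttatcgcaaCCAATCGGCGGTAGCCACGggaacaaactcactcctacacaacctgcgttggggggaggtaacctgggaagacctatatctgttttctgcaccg
Asns, chr6:7693160-7693459, minus strand: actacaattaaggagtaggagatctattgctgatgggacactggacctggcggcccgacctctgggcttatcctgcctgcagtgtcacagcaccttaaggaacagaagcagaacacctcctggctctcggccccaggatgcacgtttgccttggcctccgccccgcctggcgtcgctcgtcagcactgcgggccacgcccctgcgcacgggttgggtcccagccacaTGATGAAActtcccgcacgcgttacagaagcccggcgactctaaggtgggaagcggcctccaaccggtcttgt
Trib3, chr2:152344011-152344310, minus strand: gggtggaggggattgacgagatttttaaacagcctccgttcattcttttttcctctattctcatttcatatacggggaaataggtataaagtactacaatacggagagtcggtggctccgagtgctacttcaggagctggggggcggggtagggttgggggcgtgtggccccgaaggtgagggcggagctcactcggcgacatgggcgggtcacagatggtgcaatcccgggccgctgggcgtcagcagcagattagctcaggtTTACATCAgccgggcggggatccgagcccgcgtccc

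Both strands of these 300-base windows were searched for 4 motifs. ERSE, the ER stress element, was CCAAT followed after 9 bases of any kind by CCACG, and was found in 1 member, Syvn1, starting 44 bases before the annotated start, against 0.119% of all 32851 promoters. ERSE-II was ATTGG, then 1 base of any kind, then CCACG, and was found in Herpud1, 52 bases before the start, against 0.0365% of all promoters. CARE, the element that binds C/EBP and ATF factors, was searched as TGATGNAA. It was found in Herpud1 (112 bases before the start), Asns (23 bases before) and Trib3 (15 bases after), against 3.97% of all promoters, and in Herpud1 and Trib3 it lay on the opposite strand. UPRE, searched as TGACGTGG, was found in 0 of the 10 members and in 0.676% of all promoters. No 2 matches overlapped. Among a wider list of ATF4 and integrated stress response genes, 8 of 31 with a promoter in the table held CARE (Aars, Atf3, Chac1, Fgf21, Gars, Nupr1, Slc7a11 and Vldlr). Among a wider list of ER-associated degradation genes, 1 of 20, Derl3, held ERSE, 2 of 20, Ube2j1 and Vcp, held UPRE and 1 of 20, Faf2, held CARE. In these lists a gene counted if any of its promoters matched, while the shares of all promoters count single promoters. These matches describe letters in a window and not binding.

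Signals are given as log2 of the deposited intensity. Per array, the median signal of all probe sets was 267.3 to 305.4. Hepatocyte markers had high signals, with 6 of 7 measured (Alb, Ttr, Apoa1, Apoc3, Fgb and Hpx), each at a mean log2 signal of at least 15.35 and with a median SD of 0.09. Abca1, the gene overexpressed by design, had SDs between the mice of 0.17 to 0.25 on its 3 probe sets. As the species of the transgene is not given, these probe sets may or may not read it. The arrays stood apart in other tissues' transcripts and in RNA quality. Summed signals of skeletal muscle markers were 825 in mouse 1 and 8486, 6008 and 7646 in mice 2 to 4, and those of exocrine pancreas markers were 1944, 6578, 2061 and 2926 in mice 1 to 4. RNA quality measures set mouse 1 apart too, with a Gapdh 3-prime over 5-prime log2 ratio of 1.67 against 1.94 to 2.03 in the others and a mean 18S log2 signal of 9.95 against 8.75 to 8.98. The Actb 3-prime over 5-prime log2 ratio was instead 1.82, 1.88, 2.12 and 2.02 in mice 1 to 4, with mice 1 and 2 below mice 3 and 4 and mouse 3 highest. Mice 1 and 2 were also above mice 3 and 4 for Herpud1, Syvn1, Dnajb9 and Trib3, and the part of RNA quality in the members' levels was not tested. In bulk liver fewer cells of a type and less RNA per cell cannot be told apart.

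**Figure D1:**
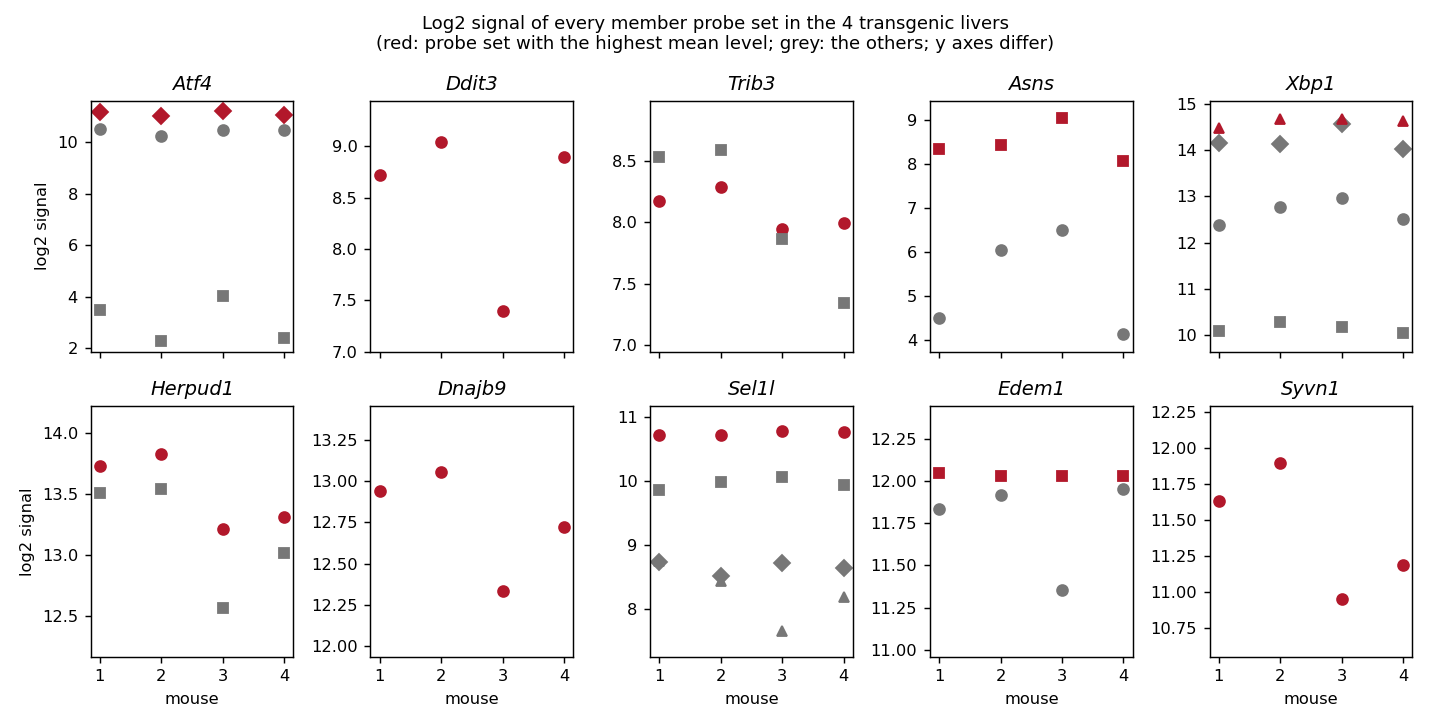
Log2 signal (y axis, a different range in each panel) of all 22 probe sets of the 10 members in mouse 1 to mouse 4 (x axis); each marker shape is 1 probe set and red marks the one with the highest mean level. Ddit3, Herpud1, Dnajb9 and Syvn1 had their lowest level in mouse 3, Asns its highest level there (also with arrays set to a common median or quantile normalized), and the red points of Atf4, Sel1l and Edem1 were almost level.

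Ddit3 was the member with the widest spread among the probe sets with the highest mean level of each gene. Ddit3 encodes CHOP, a bZIP transcription factor that is low in unstressed cells. Its 1 probe set measured 8.72, 9.04, 7.40 and 8.90 in mice 1 to 4, which is a signal of 423.0, 528.0, 168.7 and 477.5. Mouse 3 was the low one and the other 3 lay within 0.32 of each other. The SD was 0.76 (n = 4), 2.87 times the prior SD that limma fitted for probe sets of that level, and mouse 3 lay 2.81-fold below the mean log2 level of the other mice. The F-test of excess spread did not call it (limma, unadjusted p = 0.024, adjusted p = 0.977 by Benjamini-Hochberg over all probe sets). Without mouse 3 the SD was 0.16.

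Atf4 and Trib3 did not share that step. Atf4, the bZIP factor upstream of Ddit3, measured 11.16, 11.03, 11.21 and 11.05 in mice 1 to 4 on its brightest probe set, an SD of 0.08 (n = 4) and 0.46 times the prior SD. Its x_at probe set, a suffix that marks probes able to bind other transcripts, had an SD of 0.12 with its lowest level in mouse 2. The third Atf4 probe set was at the bottom of the signal range, with a mean log2 level of 3.05 (percentile 2.6 of all probe sets) and signals of 4.8 to 16.2, so its SD of 0.85 is that of dim probe sets. Trib3, a pseudokinase induced by ATF4 and CHOP, measured 8.18, 8.28, 7.95 and 8.0 on its brighter probe set and 8.53, 8.59, 7.87 and 7.35 on the other. Both were higher in mice 1 and 2 than in mice 3 and 4. The sizes differed, with highest over lowest at 1.26-fold on the first and 2.37-fold on the second, an x_at probe set.

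Asns ran the other way in mouse 3. Asns encodes asparagine synthetase, a target of ATF4 in amino acid shortage. It measured 8.35, 8.44, 9.04 and 8.07 in mice 1 to 4, highest in mouse 3 by 0.60 over the next mouse. The SD was 0.41 (n = 4), 1.53 times the prior SD, and 0.19 without mouse 3. A second, dimmer Asns probe set of the x_at kind measured 4.51, 6.04, 6.51 and 4.14, with mouse 3 again highest and mouse 4 again lowest. Within the ATF4 and CHOP arm, mouse 3 thus held the lowest Ddit3 and Trib3 levels and the highest Asns and Atf4 levels on the brightest probe sets. For Atf4 the highest mouse was mouse 1 once arrays were set to a common median.

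Herpud1 was lowest in mouse 3 on both of its probe sets. Herpud1 encodes HERP, a membrane protein of the ubiquitin ligase complex for ER-associated degradation. One probe set measured 13.74, 13.83, 13.21 and 13.31 in mice 1 to 4 and the other 13.51, 13.54, 12.56 and 13.01. Mice 1 and 2 were above mice 3 and 4 on both, with mouse 2 highest, or mouse 1 with arrays set to a common median. The SDs were 0.31 and 0.46 (n = 4), which are 2.11 and 3.10 times the prior SD, with unadjusted p of 0.073 and 0.018 and adjusted p of 0.977 for both by limma's test of excess spread. Without mouse 3 the SDs were 0.27 and 0.30. A second test asked whether the probe sets of a gene place the mice alike, against their disagreement, with variances moderated by limma. Of 4956 genes with at least 2 probe sets 19 (0.383%) passed it, and none of the 7 members with several probe sets was among them. Herpud1 came nearest (limma, unadjusted p = 0.00067, adjusted p = 0.092). Counted at an unadjusted p under 0.05, 2 of the 7 members, Herpud1 and Xbp1, were below it, against 9.12% of all genes tested. That share is 452 of 4956 genes. The member count was 1, Herpud1 alone, with arrays set to a common median (615 of all 4956 genes) and without mouse 3 (368). It was 3, with Asns added, without mouse 1 (376 of all genes), without mouse 2 (472) and with signals under 64 raised to 64 (515). Only 2 members, Atf4 and Edem1, had several probe sets left without those ending in _s_at, _x_at or _a_at. In the agreement test 0 of these had an unadjusted p under 0.05, against 158 of all 2810 genes tested. Herpud1 was not tested there, because a probe set of it ends in _a_at. For Herpud1 limma's adjusted p was 0.047 with arrays set to a common median and 0.034 over the brightest 75% of probe sets. It was 0.121 after quantile normalization, 0.309 with signals under 64 raised to 64, and 0.162 to 0.373 when 1 mouse was left out.

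Syvn1 and Dnajb9 had mouse 2 highest and mouse 3 lowest as Herpud1 did, although with arrays set to a common median mouse 1 was highest for Dnajb9, at 12.9932 against 12.9906 in mouse 2. Syvn1, which encodes the ubiquitin ligase HRD1 at the core of the degradation complex, measured 11.63, 11.90, 10.95 and 11.18 in mice 1 to 4. Mouse 2 was 1.93-fold above mouse 3, and the SD was 0.43 (n = 4), 2.44 times the prior SD (limma, unadjusted p = 0.045, adjusted p = 0.977). Dnajb9, an ER co-chaperone of BiP also called ERdj4 and a target of XBP1, measured 12.94, 13.06, 12.33 and 12.72. Highest over lowest was 1.66-fold and the SD 0.32 (n = 4), 2.05 times the prior SD (limma, unadjusted p = 0.081, adjusted p = 0.977). Without mouse 3 the Dnajb9 SD was 0.17 and the Syvn1 SD 0.36. Each of these genes had 1 probe set, so no second probe set bears on either.

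Xbp1 did not have its lowest level in mouse 3 on any of its 4 probe sets, except on the dimmest when arrays were set to a common median. The mRNA it encodes is made into an active factor after IRE1 splices it. The probe set of highest level measured 14.48, 14.67, 14.67 and 14.63 in mice 1 to 4, with mouse 1 lowest and an SD of 0.09 (n = 4). Mice 2 and 3 were level there, and mouse 4 was highest with arrays set to a common median. Another measured 14.16, 14.14, 14.56 and 14.03, with mouse 3 highest by 0.40, and 1 more 12.38, 12.77, 12.96 and 12.51, again with mouse 3 highest. The dimmest had its highest level, 10.29, in mouse 2. Over the 4 probe sets the shared difference was 0.18 above the mean in mouse 3 and 0.06 above it in mouse 2. The agreement test did not call Xbp1 (limma, unadjusted p = 0.018, adjusted p = 0.420, or unadjusted p = 0.374 with arrays set to a common median and 0.080 without mouse 3).

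Sel1l and Edem1 held the steadiest probe sets of the list, and each also had 1 probe set that was low in mouse 3. Sel1l encodes the adaptor that holds HRD1 in its complex. Its brightest probe set measured 10.72, 10.73, 10.78 and 10.77 in mice 1 to 4, an SD of 0.03 and 0.16 times the prior SD, and 2 others had SDs of 0.09. The remaining Sel1l probe set measured 8.75, 8.43, 7.66 and 8.19. Edem1, a lectin-like protein that passes misfolded glycoproteins on for degradation, measured 12.05, 12.03, 12.03 and 12.03 on 1 probe set. That SD of 0.0078 was 0.05 times the prior SD. On the other Edem1 probe set it measured 11.84, 11.92, 11.36 and 11.95, with an SD of 0.28, or 0.06 without mouse 3. Probe sets of both genes therefore disagreed about mouse 3, and the agreement test gave adjusted p of 0.865 for Sel1l and 0.691 for Edem1 (limma moderation).

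**Figure D2:**
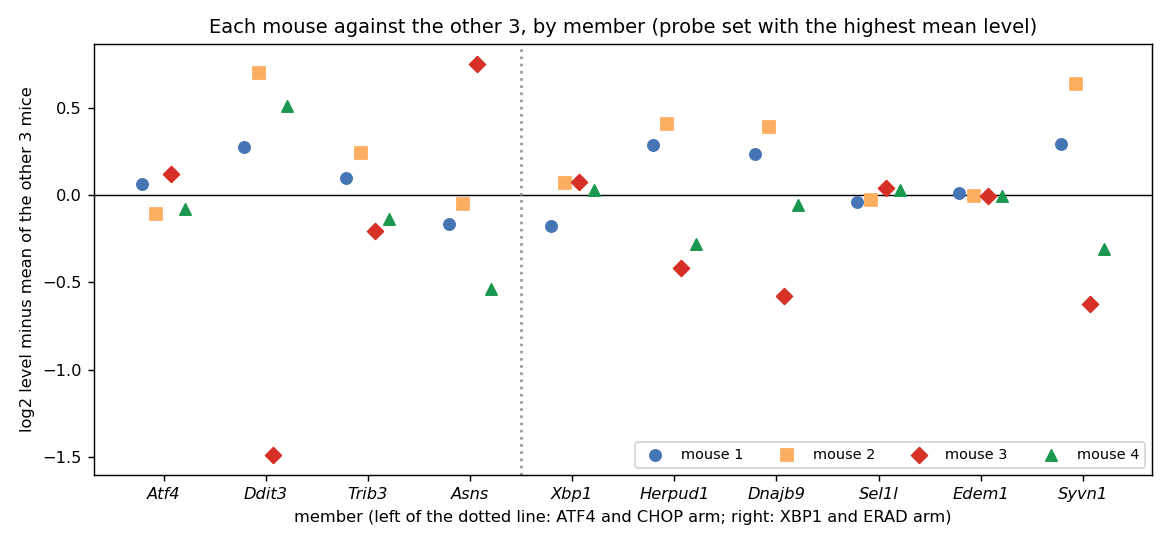
Difference in log2 level between each mouse and the mean of the other 3 (y axis) for each member (x axis), on its probe set of highest mean level; each marker is 1 mouse. Mouse 3 was lowest for Ddit3, Trib3, Herpud1, Dnajb9 and Syvn1 and highest for Atf4, Asns, Xbp1 and Sel1l, of which only Asns stayed highest there with arrays set to a common median.

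With 1 probe set per member, 5 of 10 had their lowest level in mouse 3, where 20.4% of all genes did, and 4 of 10 had their highest level there, against 33.5% of all genes. Mouse 2 held the highest level of 5 of 10 members, against 29.8% of all genes. From high to low, 4 of 10 members (Trib3, Herpud1, Dnajb9 and Syvn1) ran mouse 2, mouse 1, mouse 4, mouse 3, an order 3.83% of all genes had. That order was picked after the values were seen. These counts depended on the scaling of the arrays. With arrays set to a common median, by shifts of 0.11 at most, 6 of 10 members were lowest in mouse 3 (29.3% of all genes), 1 of 10 was highest there (23.1%), 1 of 10 was highest in mouse 2 (21.9%) and 1 of 10, Syvn1, kept the order (3.61%). After quantile normalization the counts were 5 (25.6%), 3 (28.2%), 5 (26%) and 3 (4.33%). On these probe sets Ddit3, Trib3, Herpud1, Dnajb9 and Syvn1 were lowest in mouse 3 under each of these scalings. The other Trib3 probe set had nearly the same mean level (8.08 against 8.10) but was lowest in mouse 4 under each of them. As deposited it ran mouse 2, mouse 1, mouse 3, mouse 4, so the place of Trib3 in these counts rests on the choice of probe set. The median over the members of a mouse's level relative to the other 3 was 0.08, 0.16, -0.10 and -0.07 for mice 1 to 4. Over all genes it was -0.05, 0.06, 0.09 and -0.06. Members on both sides of 0 made up each of these values, as 7, 6, 4 and 3 of 10 members were higher in mice 1 to 4. Of all genes 42.8%, 57.9%, 59.8% and 42.9% were higher in these mice. For the ATF4 and CHOP arm (4 genes) the median was 0.08, 0.10, -0.04 and -0.11 in mice 1 to 4, and for the XBP1 and degradation arm (6 genes) 0.13, 0.23, -0.21 and -0.03. Without the probe sets ending in _s_at, _x_at or _a_at, 9 members remained, as Trib3 had no other kind. The member median in mouse 3 was then -0.0035. The ATF4 and CHOP arm was left with Atf4, Ddit3 and Asns, at 0.12, -1.49 and 0.76 in mouse 3. Its median there turned to 0.12, the value of Atf4. With arrays set to a common median the member median was -0.22 in mouse 3 and turned to 0.07 in mouse 4.

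Other transcripts differed in the same mice. Of all genes 59.8% were higher in mouse 3 than the mean of the others, and 57.9% were in mouse 2. Exocrine pancreas markers had a median 0.68 lower in mouse 3 than in the others (1 of 9 genes higher), and hepatocyte markers one 0.10 lower (0 of 6 higher). Macrophage markers were 0.25 above in mouse 3 (7 of 7 higher), and bile duct markers 0.60 above (4 of 5). Stellate cell markers were 0.44 above (3 of 5) and muscle markers 0.90 above (7 of 8). The stellate cell count was near the share of all genes, and Dcn (-0.07) and Reln (-0.01) were lower there. Without mouse 1 the medians in mouse 3 were 0.08 for bile duct, 0.29 for stellate cell and -0.57 for muscle markers. Without mouse 2 the median of the pancreas markers in mouse 3 was -0.31. With arrays set to a common median the macrophage value was 0.13 and the hepatocyte value -0.21. In mouse 2 the pancreas median was 1.61 above (9 of 9 higher), with muscle 1.59 above (8 of 8), adipocyte markers 1.32 above (3 of 3) and plasma and B cell markers 0.37 above (4 of 5). Without mouse 1 the muscle median in mouse 2 was 0.33. Over the 4 mice the summed signal ran from 1944 to 6578 for the pancreas list, from 999 to 1340 for the plasma and B cell list and from 302683 to 341827 for the hepatocyte list. No marker was listed at 0. The part of these transcripts in the members' levels was not tested.

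For spread, 0 of 22 member probe sets and 0 of all 22626 (0%) passed limma's test after adjustment. At an unadjusted p under 0.05 the counts were 3 of 22 member probe sets, for Herpud1, Ddit3 and Syvn1, and 839 (3.71%) of all. The median SD over the member probe sets was 0.27 and over all probe sets 0.30. As a multiple of the prior SD the medians were 1.5 and 0.97. With 1 probe set per gene these multiples were closer, at 1.11 over the 10 members and 0.96 over all genes. The prior SD falls with level, and the median log2 level was 10.59 over member probe sets and 8.14 over all. In 12 of the 22 member probe sets the SD was over 1.5 times lower without 1 mouse, which was mouse 3 in 7 of them, mouse 2 in 3 and mouse 1 in 2. The mouse left out was the one whose removal lowered the SD most, so a fall was built in. No share over all probe sets is given beside these counts, so they do not set the members apart. With only 4 arrays each SD is imprecise, as its 95% limits lie at 0.57 and 3.73 times the estimate.

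**Figure D3:**
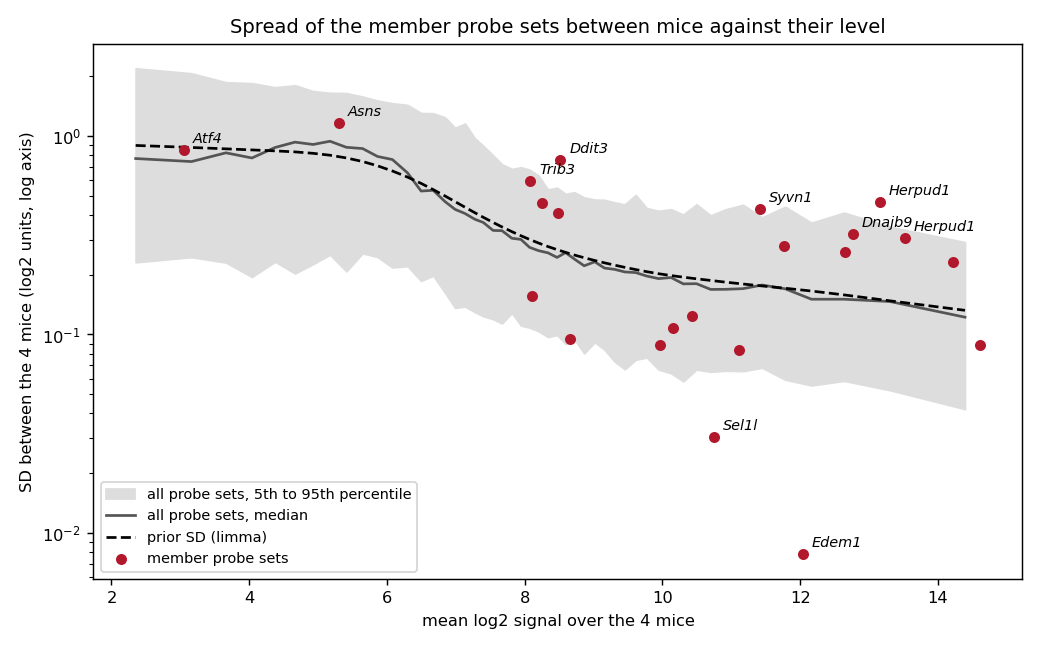
SD between the 4 mice in log2 units (y axis, log scale) against mean log2 signal (x axis) for the 22 member probe sets (points), with the 5th to 95th percentile and the median of all probe sets in bins of level and limma's prior SD. The points of Ddit3, Syvn1 and Herpud1 lie highest above the dashed line and those of Edem1 and Sel1l farthest below it.

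Other genes of the ATF4 branch were read from a list of 37, of which 35 were measured. By limma's test of excess spread 0 of 35 passed after adjustment. An unadjusted p under 0.05 was found in 4 of 35, against 3.7% of all genes. The genes of largest SD among those at or above the median level were Ddit4, Phgdh, Atf5, Aars and Eif2ak3. Ddit4, which restrains mTORC1, measured 9.77, 10.44, 11.66 and 8.65 in mice 1 to 4, highest in mouse 3 and lowest in mouse 4, with an SD 6.36 times the prior SD (limma, unadjusted p = 0.00076). Phgdh, the first enzyme of serine synthesis, measured 9.58, 9.79, 7.59 and 8.38, lowest in mouse 3. Atf5, a bZIP factor whose translation is controlled like that of ATF4, measured 12.12, 11.62, 11.02 and 11.60, and was also lowest in mouse 3. Aars, alanyl-tRNA synthetase, was at 11.55 in mouse 1, below a range of 12.24 to 12.49 elsewhere. Eif2ak3, the ER stress kinase PERK, was at 9.95 in mouse 2, above a range of 9.19 to 9.25 elsewhere. Cth, an enzyme of cysteine synthesis, was the steadiest at 14.39 ± 0.07 (SD, n = 4). The median of the list was -0.09, 0.19, 0.12 and -0.21 in mice 1 to 4, or -0.02, 0.10, 0.0051 and -0.07 with arrays set to a common median.

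Other genes of ER-associated degradation were read from a list of 30, of which 26 were measured. Here 0 of 26 passed limma's test after adjustment and 0 had an unadjusted p under 0.05, against 3.7% of all genes. The list's median SD was 0.17, or 0.92 times the prior SD, and its median was -0.06, 0.03, 0.01 and 0.06 in mice 1 to 4. The sign of these small values was not stable, as arrays set to a common median gave 0.0040, -0.06, -0.10 and 0.20, quantile normalization gave -0.02 in mouse 3, and leaving out 1 mouse turned the sign in every mouse in at least 1 case. Among genes at or above the median level the widest were Ufd1, Os9, Sec61b, Ube2g2 and Edem2. Ufd1, a cofactor of the p97 ATPase that pulls substrates out of the membrane, measured 10.34, 9.70, 9.31 and 9.94 in mice 1 to 4, lowest in mouse 3. Os9, a lectin that recognises misfolded glycoproteins, measured 11.55, 12.31, 12.18 and 11.60, and Ube2g2, a ubiquitin-conjugating enzyme, 11.26, 11.74, 11.63 and 11.16. These 2 were higher in mice 2 and 3 than in mice 1 and 4. Sec61b, of the translocon, measured 12.51, 12.10, 12.47 and 12.79, and Edem2, a relative of Edem1, 10.18, 10.48, 10.80 and 10.29, highest in mouse 3. Nploc4, which pairs with Ufd1, was the steadiest at 10.15 ± 0.05 (SD, n = 4).

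The ER chaperones are given beside the members because the same stress raises them. Of 14 chaperone genes 10 were lowest in mouse 3, against 20.4% of all genes. The count was 9 after quantile normalization (25.6% of all genes) and 13 with arrays set to a common median (29.3%). The list's median was 0.19, 0.12, -0.26 and -0.07 in mice 1 to 4. With arrays set to a common median it was 0.26, 0.03, -0.37 and 0.07. Without mouse 3 it was 0.08, 0.02 and -0.19 in mice 1, 2 and 4. The value of mouse 4 turned to 0.04 without mouse 1. Hspa5, the chaperone BiP, measured 15.26, 15.40, 14.71 and 15.04 in mice 1 to 4, in the same order of mice as Herpud1, Dnajb9 and Syvn1. It kept that order under both other scalings. In Creld2, a protein of the secretory pathway induced by ER stress, the levels were 13.25, 13.33, 11.77 and 12.17, again in that order, with mice 1 and 2 exchanged when arrays were set to a common median. Hsp90b1, the ER form of HSP90, measured 13.19, 12.78, 12.71 and 12.84. In the chaperone list 0 of 14 passed limma's test and 3 had an unadjusted p under 0.05, against 3.7% of all genes. No difference between the lists was tested.

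**Figure D4:**
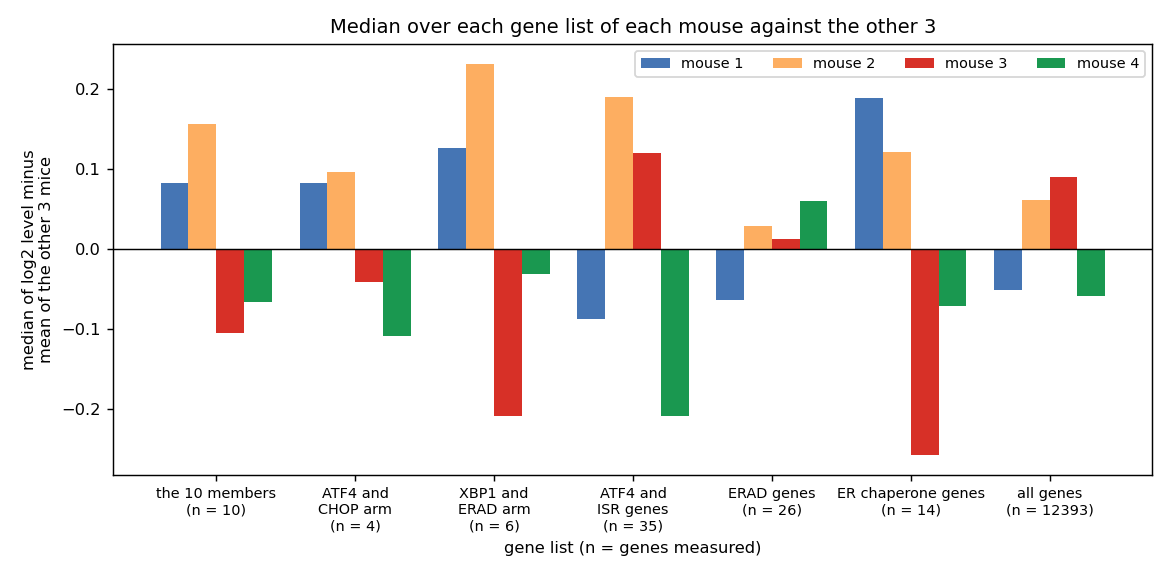
Median over the genes of each list (x axis, with the number measured) of the log2 level of 1 mouse minus the mean of the other 3 (y axis), with 1 bar per mouse. In mouse 3 the XBP1 and ERAD arm (-0.21) and the ER chaperones (-0.26) lay below 0 while the ATF4 and ISR (integrated stress response) list (0.12) and all genes (0.09) lay above it; with arrays set to a common median all genes turned to -0.03 and that list to 0.0051.

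Likeness of pattern was measured as the root mean square difference between log2 levels centred on each gene's mean, over the 4 mice and 12392 other genes. For Ddit3 the nearest were Taf7l (0.06), Ncf4 (0.08) and Rnf225 (0.09), and 47 genes lay within 0.25. The nearest member was Dnajb9 at 0.42. For Syvn1 the nearest were Rhd (0.0057), Mcf2 (0.02) and Slc12a8 (0.03), and 710 genes lay within 0.25. These included Herpud1 (0.12), Dnajb9 (0.14) and Trib3 (0.24). With 4 points many genes share a pattern, and Taf7l, Rnf225, Mcf2, Slc12a8 and Rhd had mean log2 levels of 5.52, 5.73, 5.78, 6.56 and 7.59, under the median of all probe sets.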

How the data were processed

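One array was measured for each of 4 livers, all in 1 group by their titles. The authors deposited 1 linear signal intensity per probe set and array. RMA, a method that as usually run gives log2 values with 1 distribution shared by all arrays, is the tool in the submitters' processing notes, with no version. The deposited values did not have that form, so the method that made them is unresolved. Each array had a trimmed mean of 1000 (2% off each end), the lowest intensity was 0.1, and sorted log2 values differed by up to 1.17 between arrays. Background treatment and probe summary are not given in the sources used here. RNA (2 ug) was amplified with RiboAmp, per the labels' protocols.

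Intensities were converted to log2 without a pseudocount or further normalization, and 64 control probe sets were left out. Symbols came from the platform annotation (20380 probe sets with 1 symbol, 691 with several, 1555 with none), and Entrez look-up in RefSeq changed 0. Lists use the probe set of highest mean level per gene. Levels of different probe sets rank them for that choice and as bright or dim, but are not read as relative amounts of mRNA. Spread was tested in R 4.3.3 with limma 3.58.1, by an upper-tail F-test of each variance against a robust prior that follows level, with Benjamini-Hochberg adjustment and a threshold of 0.05. The agreement test was an F-test of the mouse mean square against the residual mean square over a gene's probe sets, which share 1 RNA and 1 hybridization per mouse. Both were tested on simulated data, with noise drawn independently for each probe set. For the spread test the simulated excess was larger than that of any member over its prior SD. Those runs therefore do not show how often the spread test finds an excess of the members' size. The spread p-value measures excess over the spread typical of probe sets of that level on these arrays. The agreement p-value measures how alike the probe sets of a gene place the mice. Differences between these samples may be technical. Members and lists were chosen with earlier results of these data known. Named besides the members were, in each of the ATF4 and degradation lists, the 5 genes of largest SD at or above the median level and the 1 of smallest SD, the 3 genes nearest in pattern to each of the 2 widest members, and Hspa5, Hsp90b1 and Creld2. Alternatives were other normalizations, filters on low signals, other priors, other probe set choices and leaving out each mouse.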

Additional observations from a re-analysis of the deposited data

Results flagged for a closer look

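In 1 of the 22 member probe sets a single mouse lay far from the others, by a gap to the next mouse that exceeded Dixon's 95% critical share of the whole range for 4 samples. Chance flags about 1 in 20 such groups, and 5.90% of all probe sets went past the same limit. The member was Edem1, where mouse 1 measured 12.05 and the other 3 12.03 on the probe set of smallest spread, a gap of 0.850 of a range of only 0.02. Among the other named genes, Eif2ak3 was high in mouse 2 with a gap of 0.921 of the range. Ncf4 and Rnf225, named for their likeness to Ddit3, were low in mouse 3 with gaps of 0.842 and 0.921. Ddit3 itself, at 0.806, lay within the limit.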

How the results depend on the processing

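SDs and levels of single probe sets come from 4 arrays of 1 genotype, and dim probe sets such as the third of Atf4 limit what low signals show. No member probe set passed limma's test of excess spread under any alternative run. Over all probe sets 0 passed, by limma, with 839 at an unadjusted p under 0.05, except that 6 passed among the brightest 75%, and 0 passed in each fit that left out a mouse. The agreement test called 19 genes, against 51 with arrays shifted to the same median, 44 over the brightest 75% and 1 with signals under 64 raised to 64. It called 0 without probe sets ending in _s_at, _x_at or _a_at (158 at an unadjusted p under 0.05). When 1 mouse was left out it called 0 to 4 (0 without mouse 3). Members called by it numbered 0, and 1, Herpud1, with arrays shifted to the same median (adjusted p = 0.047) and over the brightest 75% (0.034). The causes were not tested, apart from the fewer probe sets that some alternatives tested.

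With the mean over all probe sets of a gene the member medians were 0.25, 0.43, -0.26 and -0.19 in mice 1 to 4, the ATF4 and CHOP arm was at 0.27, 0.46, 0.12 and -0.43 and the XBP1 and degradation arm at 0.19, 0.25, -0.43 and -0.10. With arrays shifted to the same median the member median was 0.074 in mouse 4. Leaving out 1 mouse gave 0.04 to 0.12 in mouse 1, 0.16 to 0.21 in mouse 2, -0.15 to -0.07 in mouse 3 and -0.14 to -0.04 in mouse 4. Without probe sets ending in _s_at, _x_at or _a_at, which drops Trib3, the ATF4 and CHOP arm turned to -0.051 in mouse 2 and 0.12 in mouse 3. With arrays shifted the arm turned to 0.032 in mouse 4. Leaving out 1 mouse gave this arm 0.05 to 0.12 in mouse 1, 0.04 (without mouse 4) to 0.21 (without mouse 3) in mouse 2, -0.09 to -0.02 in mouse 3 and -0.14 to -0.09 in mouse 4. The XBP1 and degradation arm in mouse 4 turned to 0.11 with arrays shifted and to 0.0061 without mouse 2 (range -0.14 to 0.0061 over mice left out, with -0.14 without mouse 3). In mouse 1 it ran from 0.03 without mouse 3 to 0.22 without mouse 2, in mouse 2 from 0.17 to 0.27 and in mouse 3 from -0.29 to -0.16. No paired analysis was possible because all samples belong to 1 group.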
